A study of Mus musculus with 12 samples.

Results

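Enterocytes of the small intestine carry a brush border of microvilli where the last steps of digestion and the uptake of nutrients take place, and 36 genes of it were followed here through methotrexate treatment in wild-type and TLR2 knockout mice. They were taken from a list of brush border hydrolases, of sugar, peptide, amino acid and phosphate carriers, and of microvillus genes, with 2 enzymes of fructose and glucose metabolism. A gene was measured by probe sets that the platform annotation pairs with that gene alone, and by the brightest of them where there were several. Of the 36 genes, 34 were measured among 18820 genes in all, and Slc3a1 and Slc7a7 were not analysed here.

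Disaccharidases and peptidases are anchored in the microvillus membrane, where they cut dietary sugars and peptides to monosaccharides, amino acids and short peptides. Carriers in the same membrane, many of them sodium- or proton-coupled, take these products up, and other carriers let them leave on the blood side. The genes for this equipment are switched on as cells leave the crypt and mature along the villus, and the microvilli that hold it are built from actin bundles, motor proteins and adhesion molecules.

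Expression was read on 12 Affymetrix arrays, 1 for the proximal jejunum of each of 12 mice, in 4 groups of 3. The wild type was C57BL6/J and the knockout was B6.129-Tlr2tm1Kir/J, which lacks the lipoprotein receptor TLR2 in the whole animal. In each genotype 3 mice were untreated and 3 received the antifolate drug methotrexate by intraperitoneal injection at 40 mg per kg body weight per day for 4 days, to cause mucositis, and were killed on day 7. No injection and no day of sampling are recorded for the untreated mice, so effects of the injections and of the drug cannot be told apart. The knockout was compared with C57BL6/J mice and not with littermates as far as the labels say, so the Tlr2 allele and other strain differences cannot be told apart either. Values are log2 signals, so a difference of 1 is a doubling. Each p-value rests on how far mice lie from others of their own group. For each gene this spread was pooled over all 4 groups, also those not compared.

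Arrays of a group correlated at 0.967 to 0.992 over all probe sets, and arrays of different groups at 0.916 to 0.990, so the ranges overlap. The Tlr2 probe set read 4.37 to 4.65 in untreated and 4.49 to 4.65 in treated wild-type mice, 4.36 to 5.02 in untreated knockout mice and 5.28 to 6.18 in treated knockout mice. It was not lower in the knockout arrays, and where it lies relative to the altered sequence was not known, so genotypes are as labelled. RNA of the exocrine pancreas was abundant in 7 arrays (mean log2 signal of 10 acinar genes 12.04 to 12.6) and low in the other 5 (3.70 to 5.42). The high arrays were replicates 2 and 3 of the untreated wild type, of the untreated knockout and of the treated knockout, and replicate 2 of the treated wild type. Each group held both kinds. For some of the genes that move with this signal, changes are given for each kind of array below.

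In knockout mice, methotrexate was followed by a fall of 30 of the 34 brush border genes, with none higher, while in all genes tested 16% fell. The verbs rose and fell are kept for genes whose limma p-value, adjusted by the Benjamini-Hochberg method across the 18820 genes, was under 0.05. The median log2 change of the 34 genes was -3.74, against -0.02 for all genes, and single changes ran from -7.81 to -0.34. Of the 34 genes, 29 were lower by at least 2 on the log2 scale and 16 by at least 4. In 30 of the 34 genes every treated knockout array lay below every untreated knockout array, against 21.6% of all genes. These 30 are not quite the 30 that fell, since Slc34a2 did not pass the test and Tmprss15 passed it with overlapping arrays.

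In wild-type mice none of the 34 genes changed under the same dose, and none reached an unadjusted p under 0.05. In all genes 0.0744% changed in either direction, which is 14 genes. That count was 0 with the replicate block, with only the groups compared or with median centring, 0 to 97 when 1 array was left out (97 without replicate 1 of the treated knockout), 836 with only high-pancreas arrays and 1819 with array weights. The median log2 change of the 34 genes was -0.10, with 23 below 0 and 11 above, and the smallest adjusted p was 0.434. For 16 of the 34 genes the 95% interval of the change lay wholly between -1 and 1, so a doubling or halving was outside it. For the other 18 genes the interval reached beyond those bounds. The spread behind these tests and intervals was pooled over all 4 groups, so it holds that of the treated knockout. For Slc6a19 the SD was 0.06 in the untreated and 0.19 in the treated wild type, but 1.38 in the treated knockout. Arrays did not overlap between treated and untreated wild-type mice for 3 of the 34 genes, Lct, Slc6a19 and Cdhr2, against 22.6% of all genes.

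The difference between the genotypes was tested as an interaction, the methotrexate change in the knockout minus that in the wild type. It was below 0 and passed the test for 29 of the 34 genes, against 12% of all genes, with a median of -3.83. Before treatment none of the 34 genes differed between the genotypes, and 0.0106% of all genes did. The median difference of knockout minus wild type was then -0.16 and the smallest adjusted p 0.786. Arrays of the untreated genotypes did not overlap for 5 of the 34 genes (Treh, Slc5a1, Slc2a5, Khk and Slc6a20a), against 13.1% of all genes. After treatment 30 of the 34 genes were lower in the knockout than in the wild type, against 16.8% of all genes, with a median difference of -4.23. Arrays of the treated genotypes did not overlap, with the knockout lower, for 33 of the 34 genes, against 22% of all genes. These contrasts share their groups, so they are not independent of each other.

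**Figure D1:**
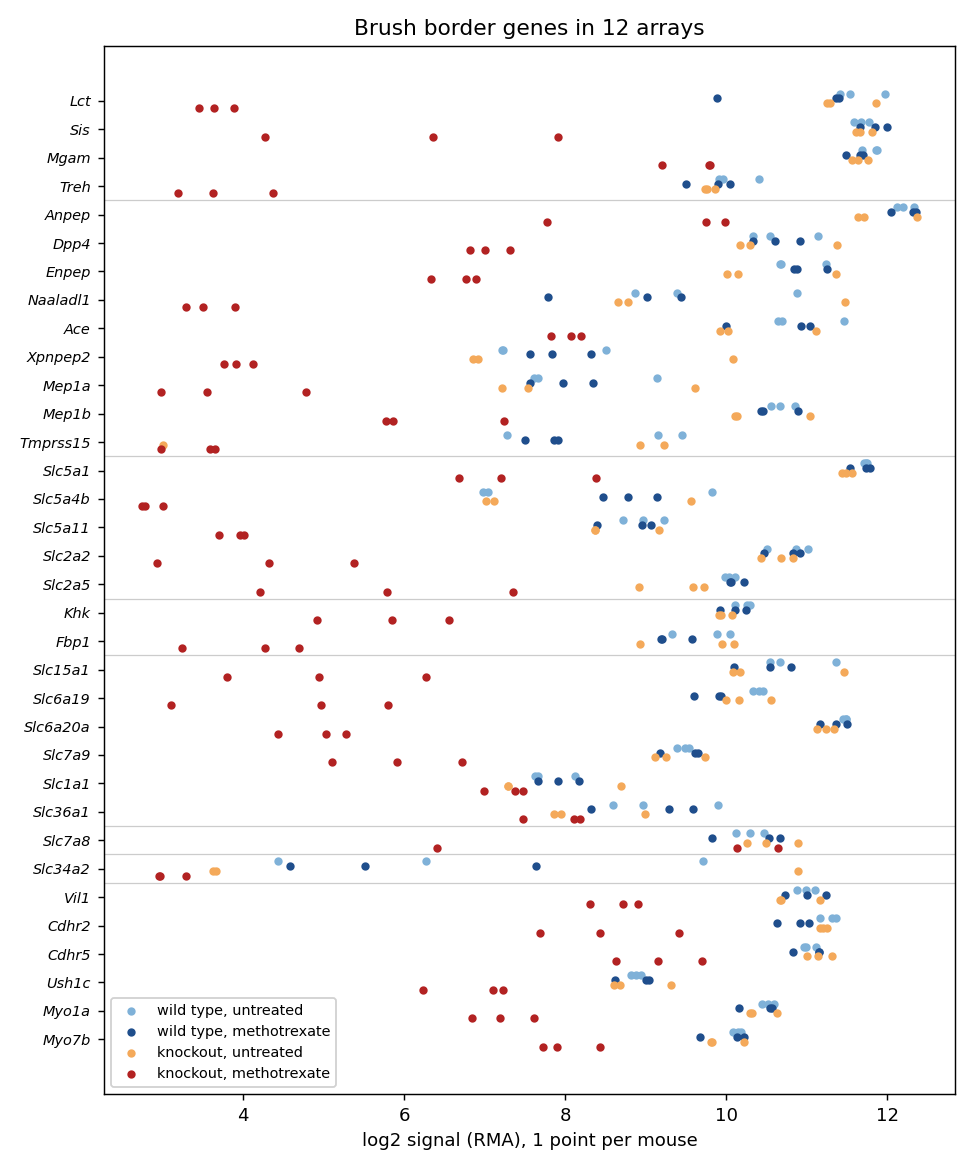
Log2 signal (horizontal axis) of 34 brush border genes in 12 arrays, 1 point per mouse, coloured by genotype and treatment, with grey lines between roles. The treated knockout arrays lie left of all others for most genes, while Slc1a1, Slc36a1 and Slc7a8 stay among or close to the other groups.

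**Figure D2:**
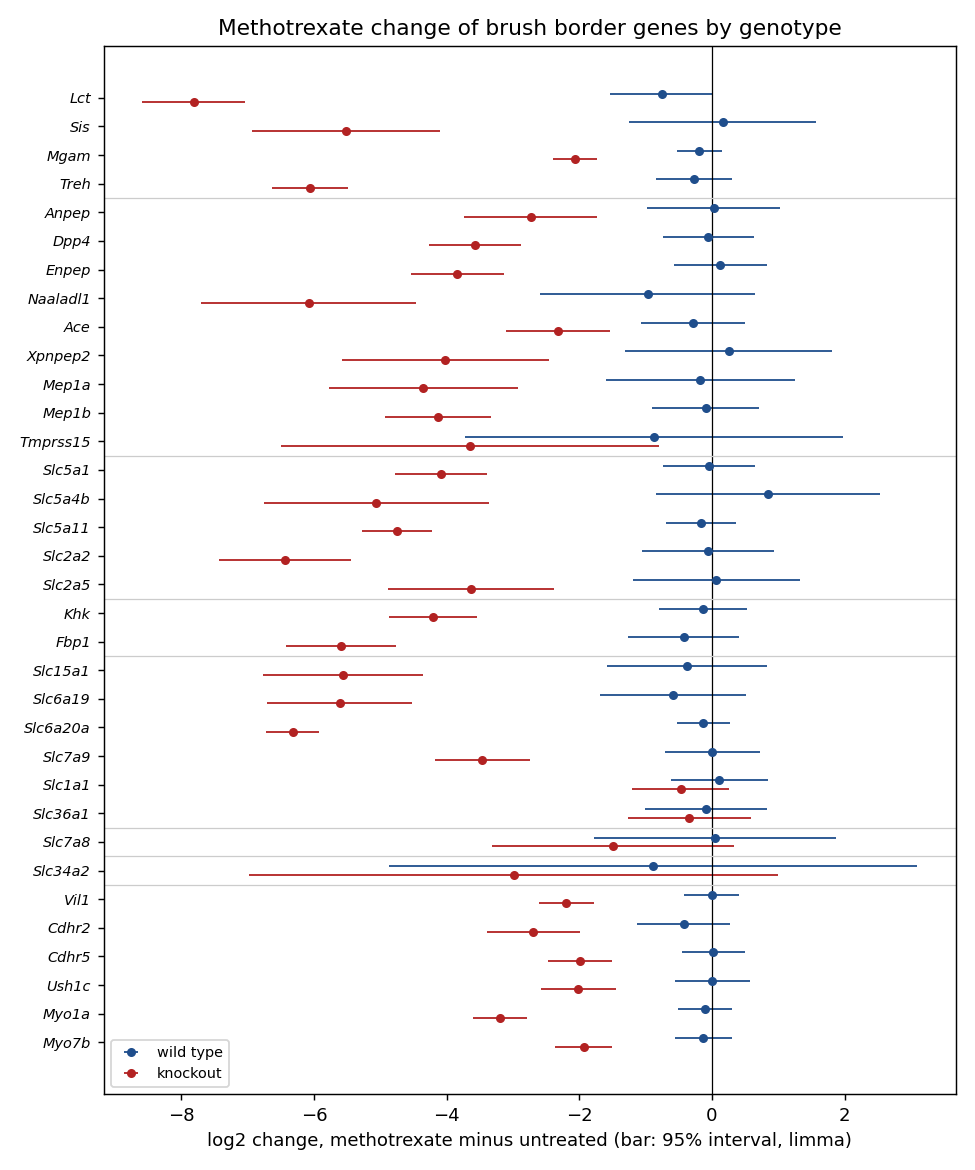
Log2 change with methotrexate (horizontal axis) of 34 brush border genes, as limma's estimate with its 95% interval, in wild-type and knockout mice. In the wild type all intervals include 0, and in the knockout the intervals of Slc1a1, Slc36a1, Slc7a8 and Slc34a2 include it.

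All 4 disaccharidases fell in treated knockout mice, by a median of 5.79 on the log2 scale. Lactase, which splits milk sugar, showed the largest fall of all 18820 genes. The smallest fall of the 4 was that of maltase-glucoamylase, which finishes starch digestion. Upstream sequences of both, and of sucrase-isomaltase, which splits sucrose and short starch chains, are shown because they are the members with the largest and the smallest change of this role and 1 between. They are the 250 bases before the RefSeq start of each gene in GRCm38.p6, read 5′ to 3′ on the gene's strand, at chr1:128328319-128328568 (minus strand) for Lct, chr3:72967864-72968113 (minus strand) for Sis and chr6:40628581-40628830 (plus strand) for Mgam. Capitals mark matches to the HNF4 core CAAAGTC, the CDX core TTTATG and the GATA core AGATAA, searched on both strands.
Lct: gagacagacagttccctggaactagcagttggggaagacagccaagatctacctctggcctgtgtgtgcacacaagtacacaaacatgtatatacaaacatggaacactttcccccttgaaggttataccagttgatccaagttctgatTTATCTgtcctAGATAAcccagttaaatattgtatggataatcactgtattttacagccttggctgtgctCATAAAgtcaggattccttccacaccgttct
Sis: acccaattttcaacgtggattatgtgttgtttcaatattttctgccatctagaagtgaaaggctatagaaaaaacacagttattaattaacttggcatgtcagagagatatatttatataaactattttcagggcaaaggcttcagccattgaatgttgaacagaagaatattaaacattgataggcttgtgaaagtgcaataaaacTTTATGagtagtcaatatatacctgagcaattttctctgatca
Mgam: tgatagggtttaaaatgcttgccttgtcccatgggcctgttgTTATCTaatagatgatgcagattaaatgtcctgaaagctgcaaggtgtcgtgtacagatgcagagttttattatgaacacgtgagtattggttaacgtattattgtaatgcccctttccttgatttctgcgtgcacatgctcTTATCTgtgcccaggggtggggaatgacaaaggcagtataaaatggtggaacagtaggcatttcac

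In the Lct sequence a CDX core match lay 31 to 26 bases before the start on the opposite strand. GATA core matches lay 101 to 96 bases before it on the opposite strand and 90 to 85 bases before it on the gene's strand. In the Sis sequence a CDX core match lay 43 to 38 bases before the start. In the Mgam sequence GATA core matches lay 208 to 203 and 66 to 61 bases before the start, both on the opposite strand. RefSeq windows were matched for 31 of the 34 measured genes. The HNF4 core was in windows of 3 of the 31 (9.68%), Treh, Ace and Cdhr2, against 4.33% of 27025 genes. The CDX core was in 4 (12.9%), Lct, Sis, Tmprss15 and Cdhr5, against 12.4%. The GATA core was in 5 (16.1%), Lct, Mgam, Dpp4, Fbp1 and Slc7a9, against 11.4%. These matches describe the letters of the windows and are neither shown to be bound nor set against the changes.

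Lactase (Lct) read 11.97, 11.53 and 11.41 in the untreated wild type, 11.36, 9.89 and 11.40 in the treated wild type, 11.86, 11.25 and 11.29 in the untreated knockout and 3.88, 3.45 and 3.64 in the treated knockout. The treated knockout stood apart from all other arrays, and among the rest only replicate 2 of the treated wild type, a high-pancreas array, was low. Lct fell by 7.81 ± 0.35 (limma standard error) in the knockout, a 224-fold change of signal, with an adjusted p of 4.52e-08. In the wild type its change was -0.76 ± 0.35 (adjusted p 0.434), the smallest p of the 34 genes in that contrast. The interaction was -7.05 ± 0.50 (adjusted p 3.08e-06), which was also the largest fall of all genes in that contrast.

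Sucrase-isomaltase (Sis) read 11.58, 11.77 and 11.67 in the untreated wild type, 11.84, 11.66 and 11.998 in the treated wild type, 11.81, 11.61 and 11.66 in the untreated knockout and 4.27, 6.36 and 7.91 in the treated knockout. The 9 other arrays lay close together, while the treated knockout mice spread over 3.64, all below them. Sis fell by 5.51 ± 0.64 in the knockout (adjusted p 4.37e-05), and its interaction was -5.67 ± 0.91 (adjusted p 0.000792). Untreated genotypes differed by 0.02 ± 0.64 (adjusted p 0.998), among the largest p-values of that contrast. The SD was 0.09 in the untreated wild type and 0.10 in the untreated knockout, against 1.83 in the treated knockout, which the pooled standard error includes.

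Maltase-glucoamylase (Mgam) read 11.69, 11.87 and 11.86 in the untreated wild type, 11.70, 11.49 and 11.66 in the treated wild type, 11.63, 11.76 and 11.57 in the untreated knockout and 9.78, 9.20 and 9.80 in the treated knockout. The treated knockout was lower than every other array and its mice lay close together. Mgam fell by 2.06 ± 0.15 in the knockout, a 4.17-fold change (adjusted p 1.46e-06), with an interaction of -1.87 ± 0.22 (adjusted p 8.61e-05). Trehalase (Treh), which splits the fungal sugar trehalose, read 10.40, 9.96 and 9.91 in the untreated wild type, 10.05, 9.50 and 9.89 in the treated wild type, 9.86, 9.76 and 9.73 in the untreated knockout and 3.18, 3.63 and 4.37 in the treated knockout. It was low in each of the treated knockout mice and fell by 6.06 ± 0.26, a 66.6-fold change (adjusted p 3.39e-08), with an interaction of -5.78 ± 0.37 (adjusted p 1.56e-06). Untreated knockout arrays of Treh all lay below the untreated wild-type ones, by -0.30 ± 0.26, which did not pass the test (adjusted p 0.841).

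The 9 peptidase genes fell in treated knockout mice, by 2.33 to 6.08 with a median of 3.84 on the log2 scale. For 8 of the 9 the interaction passed the test. They include aminopeptidases that trim peptides from the amino end, a dipeptidyl peptidase, both meprin subunits and enteropeptidase, which turns pancreatic trypsinogen into trypsin.

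Aminopeptidase N (Anpep) read 12.33, 12.19 and 12.12 in the untreated wild type, 12.32, 12.05 and 12.36 in the treated wild type, 12.37, 11.63 and 11.71 in the untreated knockout and 7.78, 9.75 and 9.99 in the treated knockout. The treated knockout arrays were the lowest, and replicate 1 was the lowest of them. Anpep fell by 2.73 ± 0.46 (adjusted p 0.000629), and its interaction was -2.76 ± 0.64 (adjusted p 0.00836). Dipeptidyl peptidase 4 (Dpp4), which also inactivates incretin hormones, read 11.14, 10.33 and 10.54 in the untreated wild type, 10.60, 10.33 and 10.92 in the treated wild type, 11.38, 10.17 and 10.29 in the untreated knockout and 7.00, 7.32 and 6.82 in the treated knockout. The treated knockout mice lay within 0.50 of each other, well below the rest, and Dpp4 fell by 3.57 ± 0.31 (adjusted p 4.96e-06), with an interaction of -3.52 ± 0.44 (adjusted p 0.000153).

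Naaladl1, a peptidase of the brush border, read 10.88, 9.38 and 8.87 in the untreated wild type, 9.01, 7.79 and 9.44 in the treated wild type, 11.48, 8.78 and 8.66 in the untreated knockout and 3.28, 3.497 and 3.89 in the treated knockout. It fell by 6.08 ± 0.74, the largest fall among the peptidases (adjusted p 5.79e-05). In both untreated groups the low-pancreas array, replicate 1, was the highest. The wild-type change was -0.96 ± 0.74 (adjusted p 0.599), and groups overlapped. Angiotensin-converting enzyme (Ace), which removes dipeptides from the carboxyl end, read 11.47, 10.69 and 10.65 in the untreated wild type, 10.92, 9.99 and 11.04 in the treated wild type, 11.11, 10.02 and 9.93 in the untreated knockout and 7.82, 8.08 and 8.19 in the treated knockout. Its treated knockout arrays were below all others, and it fell by 2.33 ± 0.36 (adjusted p 0.000342), the smallest fall of this role. Untreated knockout and wild-type arrays of Ace overlapped and differed by -0.58 ± 0.36 (adjusted p 0.788).

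The meprin alpha subunit (Mep1a) read 9.14, 7.62 and 7.66 in the untreated wild type, 7.98, 7.56 and 8.34 in the treated wild type, 9.61, 7.53 and 7.22 in the untreated knockout and 2.98, 3.55 and 4.77 in the treated knockout. Replicate 1 of both untreated groups was again the highest, and all treated knockout arrays were low, so Mep1a fell by 4.35 ± 0.65 (adjusted p 0.000276). The beta subunit (Mep1b) fell by 4.13 ± 0.36 from 10.43 ± 0.53 to 6.29 ± 0.83 (SD, n = 3). Glutamyl aminopeptidase (Enpep) fell by 3.84 ± 0.32 and aminopeptidase P (Xpnpep2) by 4.02 ± 0.71. Xpnpep2 spread widely in the untreated knockout (7.95 ± 1.85, SD, n = 3), where its low-pancreas array stood highest.

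Enteropeptidase (Tmprss15) read 7.28, 9.15 and 9.45 in the untreated wild type, 7.85, 7.90 and 7.503 in the treated wild type, 3.01, 8.93 and 9.22 in the untreated knockout and 2.97, 3.65 and 3.59 in the treated knockout. One untreated knockout array, the low-pancreas replicate 1, was as low as the treated ones, and the groups overlapped. The low-pancreas array of the untreated wild type, at 7.28, was also the lowest of its group. The fall of 3.65 ± 1.29 in the knockout passed the test narrowly (adjusted p 0.048) and the interaction of -2.78 ± 1.83 did not (adjusted p 0.343). Within high-pancreas arrays the change in the knockout was -5.46, and in the low-pancreas pair it was -0.04. Without replicate 1 of the untreated knockout the interaction passed the test (adjusted p 0.000598). Leaving out any 1 of the other 11 arrays ended the call in the knockout (adjusted p 0.0522 to 0.183).

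All 5 sugar carriers fell in treated knockout mice, by 3.63 to 6.43 on the log2 scale, and so did both enzymes of fructose and glucose metabolism. Each of these 7 genes also passed the interaction test. None of them changed in the treated wild type, where the median of the sugar carriers was -0.05.

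The sodium-glucose cotransporter of the apical membrane (Slc5a1) read 11.73, 11.71 and 11.75 in the untreated wild type, 11.78, 11.53 and 11.73 in the treated wild type, 11.56, 11.49 and 11.44 in the untreated knockout and 6.68, 7.20 and 8.38 in the treated knockout. The 9 other arrays were nearly level, and each treated knockout array was lower, with replicate 3 the least so. Slc5a1 fell by 4.08 ± 0.32, a 16.9-fold change (adjusted p 1.97e-06), with an interaction of -4.03 ± 0.45 (adjusted p 6.58e-05). Untreated knockout arrays lay below untreated wild-type ones by -0.23 ± 0.32, which did not pass the test (adjusted p 0.906).

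The facilitative glucose carrier Slc2a2, which moves glucose and fructose across the basolateral membrane, read 10.51, 11.02 and 10.86 in the untreated wild type, 10.92, 10.47 and 10.83 in the treated wild type, 10.42, 10.68 and 10.83 in the untreated knockout and 2.93, 4.32 and 5.38 in the treated knockout. It was low in every treated knockout mouse, least so in replicate 3. Slc2a2 fell by 6.43 ± 0.45, a 86.5-fold change (adjusted p 1.01e-06), with an interaction of -6.38 ± 0.64 (adjusted p 3.46e-05). The apical fructose carrier Slc2a5 read 9.98, 10.04 and 10.10 in the untreated wild type, 10.22, 10.06 and 10.04 in the treated wild type, 8.92, 9.59 and 9.72 in the untreated knockout and 4.21, 5.78 and 7.35 in the treated knockout. Treated knockout mice spread over 3.14, all below the others, and Slc2a5 fell by 3.63 ± 0.57 (adjusted p 0.000416), with an interaction of -3.70 ± 0.81 (adjusted p 0.00569). Its untreated knockout arrays were below its untreated wild-type arrays, a difference of -0.63 ± 0.57 that did not pass the test (adjusted p 0.848).

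Slc5a11, a sodium-coupled carrier of inositol, read 9.23, 8.97 and 8.72 in the untreated wild type, 9.07, 8.40 and 8.95 in the treated wild type, 9.17, 8.37 and 8.37 in the untreated knockout and 4.02, 3.70 and 3.96 in the treated knockout. It fell by 4.74 ± 0.24 with little spread between treated knockout mice (adjusted p 9.16e-08). Its untreated genotypes overlapped and differed by -0.34 ± 0.24 (adjusted p 0.813). Slc5a4b, a relative of the sodium-glucose cotransporter with a close paralog whose RNA may share its probes, fell by 5.06 ± 0.77 to 2.84 ± 0.14 (SD, n = 3). In the wild type its change was 0.85 ± 0.77 (adjusted p 0.66). That change was 1.46 within high-pancreas arrays and -0.86 within low-pancreas ones, so its sign differed between them.

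Ketohexokinase (Khk), the first enzyme of fructose breakdown, read 10.26, 10.30 and 10.11 in the untreated wild type, 10.25, 9.92 and 10.11 in the treated wild type, 9.91, 9.94 and 10.07 in the untreated knockout and 4.92, 5.84 and 6.56 in the treated knockout. All treated knockout arrays were low, and Khk fell by 4.20 ± 0.30 (adjusted p 1.18e-06), with an interaction of -4.07 ± 0.43 (adjusted p 4.79e-05). Fructose-bisphosphatase (Fbp1), an enzyme of glucose synthesis, fell by 5.59 ± 0.38 from 9.66 ± 0.64 to 4.07 ± 0.75 (SD, n = 3). The untreated genotypes differed for Khk by -0.25 ± 0.30, with no overlap of arrays, and the test was not passed (adjusted p 0.891).

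Of the 6 measured apical carriers of peptides and amino acids, 4 fell in treated knockout mice, with 2 amino acid carriers, Slc1a1 and Slc36a1, not passing the test. The 4 that fell were the peptide carrier and the carriers of neutral amino acids, of proline and of cystine and basic amino acids. Their falls ran from 3.46 to 6.32 on the log2 scale, and each passed the interaction test.

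The proton-coupled peptide carrier (Slc15a1) read 11.36, 10.67 and 10.54 in the untreated wild type, 10.55, 10.10 and 10.80 in the treated wild type, 11.46, 10.08 and 10.17 in the untreated knockout and 3.80, 4.94 and 6.27 in the treated knockout. The treated knockout was low in every mouse, least so in replicate 3, and Slc15a1 fell by 5.57 ± 0.55, a 47.4-fold change (adjusted p 1.21e-05). Its interaction was -5.19 ± 0.78 (adjusted p 0.00049). The neutral amino acid carrier Slc6a19 read 10.34, 10.41 and 10.45 in the untreated wild type, 9.91, 9.59 and 9.93 in the treated wild type, 10.55, 9.997 and 10.16 in the untreated knockout and 3.10, 4.96 and 5.80 in the treated knockout. The treated wild type lay below the untreated wild type in each array, by -0.59 ± 0.50, without passing the test (adjusted p 0.638). In the knockout Slc6a19 fell by 5.61 ± 0.50 (adjusted p 5.55e-06), and its interaction was -5.02 ± 0.71 (adjusted p 0.000322).

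The proline carrier Slc6a20a read 11.48, 11.49 and 11.45 in the untreated wild type, 11.49, 11.16 and 11.37 in the treated wild type, 11.12, 11.23 and 11.33 in the untreated knockout and 5.28, 5.02 and 4.43 in the treated knockout. Its SD was 0.02 to 0.17 in the other groups and 0.44 in the treated knockout. The fall of Slc6a20a by 6.32 ± 0.18, 79.7-fold, had the smallest p of the 34 genes in the knockout (adjusted p 3.68e-09). It also had the smallest p in the interaction, -6.19 ± 0.26 (adjusted p 1.52e-07), and between treated genotypes, where it was lower by 6.43 ± 0.18 (adjusted p 2.56e-09). Slc7a9, the light subunit of the cystine and basic amino acid carrier, read 9.49, 9.39 and 9.54 in the untreated wild type, 9.64, 9.18 and 9.62 in the treated wild type, 9.74, 9.12 and 9.25 in the untreated knockout and 5.10, 5.90 and 6.71 in the treated knockout. It fell by 3.46 ± 0.32 in the knockout (adjusted p 8.21e-06), and its wild-type arrays overlapped (change 0.01 ± 0.32, adjusted p 0.994).

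The glutamate and aspartate carrier Slc1a1 read 8.12, 7.66 and 7.63 in the untreated wild type, 7.91, 8.17 and 7.67 in the treated wild type, 8.69, 7.29 and 7.28 in the untreated knockout and 7.38, 7.48 and 6.99 in the treated knockout. Treated and untreated knockout arrays overlapped, with a change of -0.47 ± 0.33 and a 95% interval of -1.20 to 0.25 (adjusted p 0.314). A second Slc1a1 probe set gave a change of -0.42 (adjusted p 0.183 over all probe sets). Between treated genotypes the probe set used differed by -0.63 ± 0.33 (adjusted p 0.172), and the second by -0.71, lower in the knockout, which passed the test (adjusted p 0.0273 over all probe sets). The proton-coupled amino acid carrier Slc36a1 read 9.89, 8.59 and 8.97 in the untreated wild type, 9.28, 8.31 and 9.59 in the treated wild type, 8.99, 7.86 and 7.95 in the untreated knockout and 7.48, 8.11 and 8.18 in the treated knockout. Groups overlapped, with a knockout change of -0.34 ± 0.42 and an interval of -1.27 to 0.58 (adjusted p 0.588). Untreated, Slc36a1 had the smallest p of the 34 genes between genotypes, -0.88 ± 0.42 (adjusted p 0.786). After methotrexate its treated knockout arrays all lay below the treated wild-type ones, by -1.14 ± 0.42 (adjusted p 0.0547, or 0.0369 with a replicate block).

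The only basolateral amino acid carrier measured, Slc7a8, read 10.47, 10.29 and 10.13 in the untreated wild type, 10.53, 9.82 and 10.67 in the treated wild type, 10.88, 10.26 and 10.49 in the untreated knockout and 6.40, 10.13 and 10.64 in the treated knockout. Replicate 1 of the treated knockout, the low-pancreas array, was low, and the other 2 treated knockout arrays lay among the untreated ones. The change was -1.49 ± 0.83 with an interval of -3.32 to 0.34 (adjusted p 0.202). Within high-pancreas arrays it was 0.01, and in the low-pancreas pair it was -4.48. The part of pancreatic RNA in this was not tested. Treated genotypes overlapped for Slc7a8 alone among the 34 genes, and differed by -1.28 ± 0.83 (adjusted p 0.279).

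The sodium-phosphate cotransporter Slc34a2 read 9.71, 6.27 and 4.43 in the untreated wild type, 5.52, 4.58 and 7.64 in the treated wild type, 10.90, 3.66 and 3.63 in the untreated knockout and 2.96, 2.96 and 3.29 in the treated knockout. It was highest in replicate 1 of both untreated groups, and every treated knockout array was below the others. The knockout change was -2.99 ± 1.81 with an interval of -6.97 to 0.99 and did not pass the test (adjusted p 0.241). It was -0.52 within high-pancreas arrays and -7.93 in the low-pancreas pair.

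All 6 microvillus genes fell in treated knockout mice, by 1.93 to 3.20 with a median of 2.10 on the log2 scale, and all 6 passed the interaction test. The median change of the disaccharidases was -5.79 and that of the sugar carriers -4.74, and whether roles differ in their change was not tested. None of the 6 changed in the wild type, where their median was -0.05.

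Villin (Vil1), which bundles the actin core of microvilli, read 11.10, 10.99 and 10.88 in the untreated wild type, 11.003, 10.73 and 11.23 in the treated wild type, 11.16, 10.68 and 10.67 in the untreated knockout and 8.90, 8.30 and 8.72 in the treated knockout. The treated knockout was lower in each mouse and fell by 2.19 ± 0.19, a 4.58-fold change (adjusted p 4.29e-06). In the wild type the interval of the Vil1 change was -0.42 to 0.41, and its p was the largest of the 34 genes (adjusted p 0.995). Its interaction was -2.19 ± 0.27 (adjusted p 0.000123).

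The protocadherin Cdhr5, which links the tips of neighbouring microvilli with Cdhr2, read 10.96, 10.98 and 11.12 in the untreated wild type, 11.15, 10.83 and 11.15 in the treated wild type, 11.31, 10.999 and 11.13 in the untreated knockout and 8.63, 9.15 and 9.69 in the treated knockout. It fell by 1.99 ± 0.22 in the knockout with no overlap (adjusted p 2.66e-05), and its interaction was -2.01 ± 0.31 (adjusted p 0.000579). Cdhr2 read 11.16, 11.31 and 11.37 in the untreated wild type, 11.02, 10.63 and 10.92 in the treated wild type, 11.19, 11.25 and 11.17 in the untreated knockout and 7.69, 8.44 and 9.41 in the treated knockout. The treated wild type was below the untreated wild type in each mouse, by -0.43 ± 0.32, which did not pass the test (adjusted p 0.593). In the knockout Cdhr2 fell by 2.69 ± 0.32 (adjusted p 5.03e-05).

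Ush1c, a scaffold at the microvillus tip, read 8.81, 8.94 and 8.88 in the untreated wild type, 9.004, 8.62 and 9.04 in the treated wild type, 9.31, 8.61 and 8.68 in the untreated knockout and 7.23, 6.23 and 7.10 in the treated knockout. It fell by 2.01 ± 0.26 (adjusted p 8.55e-05), and a second, dimmer probe set fell by 1.12 (adjusted p 0.00188 over all probe sets). Myosin 1a (Myo1a), which ties the actin core to the membrane, fell by 3.20 ± 0.19, the largest fall of this role. Myosin 7b (Myo7b), a motor of the tip complex, fell by 1.93 ± 0.20, the smallest.

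Signals of 14 of the 34 genes in treated knockout mice had means below 5.10, the lowest array median of all genes, and no gene did in another group. The table holds no detection calls, so for these 14, Lct, Treh and Slc2a2 among them, the fitted fall may understate the loss of RNA. In bulk tissue, fewer enterocytes and less RNA per enterocyte cannot be told apart. The range between the 3 mice of a group was over 1 for 16 of the 34 genes in the treated knockout, 7 in the untreated wild type, 5 in the treated wild type and 13 in the untreated knockout. Replicate 1 of the treated knockout was the lowest of its group for 21 genes, and replicate 3 was the highest for 22.

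**Figure D3:**
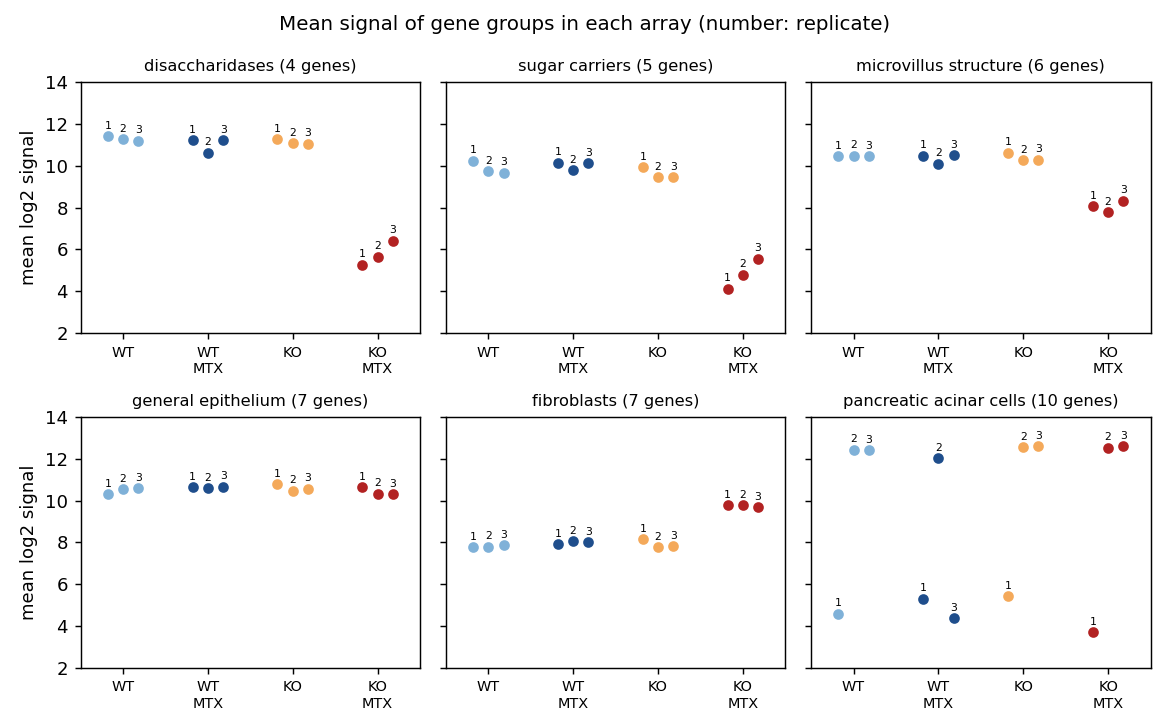
Mean log2 signal (vertical axis) over the genes of 6 lists in each array, with the replicate number above each point (WT, wild type; KO, knockout; MTX, methotrexate). The disaccharidases, sugar carriers and microvillus genes are low in the treated knockout, the general epithelial genes lie between 10.3 and 10.8 in all 12 arrays, and the pancreatic genes divide 7 arrays from 5.

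Other genes of the same machinery, from lists that the 34 genes are not part of, are given by their counts, to be read beside the 16% of all genes that fell and the 18.8% that rose in treated knockout mice. Of 12 other brush border hydrolases and partners, 5 fell and none rose in treated knockout mice, with a median of -1.71. Neprilysin (Mme) fell by 4.80 ± 0.18, the ceramidase Asah2 by 3.51 ± 0.27 and the nucleotide hydrolase Enpp3 by 5.01 ± 0.47. The weakest was Cltrn, a partner of neutral amino acid carriers, with -0.24 ± 0.22 (adjusted p 0.456). None of the 12 changed in the wild type, and for 5 of the 12 the interaction passed the test below 0, against 12% of all genes.

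Of 18 other nutrient carriers, 11 fell and 3 rose in treated knockout mice, with a median of -2.27, and the 3 of 18 that rose are no larger a share than the 18.8% of all genes. Slc2a7, a sugar carrier, fell by 4.50 ± 0.12, the nucleoside carrier Slc28a1 by 5.83 ± 0.21 and the anion exchanger Slc26a6 by 4.26 ± 0.35. The 3 that rose, singled out after their values were seen, were the glucose carrier Slc2a1 by 1.98 ± 0.25, the basolateral amino acid exchanger Slc7a6 by 1.85 ± 0.27 and the nucleoside carrier Slc29a1 by 1.14 ± 0.23. Slc2a1 read 7.92, 8.24 and 8.37 in the untreated and 9.93, 10.27 and 10.27 in the treated knockout, without overlap, and its interaction of 1.48 ± 0.35 passed the test (adjusted p 0.00901). The lactate carrier Slc16a1 was the weakest, with 0.19 ± 0.24 (adjusted p 0.606). Among these 18 carriers the interaction passed the test below 0 for 10 and above 0 for 3, against 2259 and 2220 of 18820 genes.

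All 5 other fructose and gluconeogenic genes fell, with a median of -3.04, among them the glucose-6-phosphate carrier Slc37a4 by 1.89 ± 0.13, triokinase (Tkfc) by 3.04 ± 0.25 and glucose-6-phosphatase (G6pc) by 5.55 ± 0.52. The largest p of the 5 was that of Pck1, which fell by 4.37 ± 0.56 (adjusted p 9.24e-05). Of 16 other microvillus genes 14 fell and none rose, with a median of -1.23. The interaction passed the test below 0 for 11 of these 16 and for all 5 fructose and gluconeogenic genes, against 12% of all genes. Anks4b fell by 2.98 ± 0.17 and Calml4 by 3.28 ± 0.19, both of the tip complex, and the actin bundler Pls1 by 2.85 ± 0.17, while Tmigd1 changed least by p (-0.21 ± 0.35, adjusted p 0.695).

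The 6 measured of 8 listed transcription factors that act on brush border genes fell in treated knockout mice, by 1.17 to 4.85 on the log2 scale, and each passed the interaction test. Hnf4g read 10.73, 10.43 and 10.47 in the untreated and 6.46, 5.24 and 5.38 in the treated knockout and fell by 4.85 ± 0.25 (adjusted p 1.07e-07). Gata6 fell by 1.67 ± 0.12 and Gata4 by 1.66 ± 0.18. Cdx1 had the largest p of the 6 and fell by 1.17 ± 0.29 (adjusted p 0.00905). None of the 6 passed the test in the treated wild type or between untreated genotypes.

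Markers of cell types moved with the fall in the knockout as follows, and their part in it was not tested. Their counts are to be read beside the 16% of all genes that fell and the 18.8% that rose in treated knockout mice. All 6 enterocyte markers fell, with array means of 11.9 to 12.2 in the other groups and 7.15 to 10.3 in treated knockout mice. They were led by Fabp2 (3.43 ± 0.35), Fabp1 (2.77 ± 0.31) and Rbp2 (3.44 ± 0.63), and Apoa4 fell least by p (2.37 ± 0.79, adjusted p 0.0359). The interaction of these markers passed the test below 0 for 3 of the 6, against 12% of all genes, and did not pass for the other 3. General epithelial genes kept array means of 10.3 to 10.6 in the untreated wild type, 10.6 to 10.7 in the treated wild type, 10.5 to 10.8 in the untreated knockout and 10.3 to 10.6 in the treated knockout. Of 7 such genes 4 fell and 1 rose (16% and 18.8% of all genes). Krt18 rose by 1.28 ± 0.23, Epcam fell by 0.95 ± 0.20 and Cldn7 by 0.76 ± 0.23, and Krt8 had a change of -0.13 ± 0.11 (adjusted p 0.435). Of 7 crypt and proliferation genes 2 fell (16% of all genes), Olfm4 by 4.85 ± 0.41 and Lgr5 by 0.995 ± 0.32. Mcm2 (0.70 ± 0.30, adjusted p 0.102) and Ascl2 (0.18 ± 0.39, adjusted p 0.773) did not pass. Array means of the 7 genes were 7.69 to 8.27 in the other groups and 6.77 to 8.30 in the treated knockout.

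All 7 fibroblast markers rose in treated knockout mice (18.8% of all genes), with array means of 7.76 to 8.16 in the other groups and 9.70 to 9.79 there. Col1a1 rose by 2.28 ± 0.13, Pdgfra by 1.98 ± 0.14 and Col1a2 by 2.04 ± 0.14, and Dcn had the largest p (1.28 ± 0.16, adjusted p 6.76e-05). Of 6 leukocyte markers 3 rose and 2 fell (18.8% and 16% of all genes), with Cd68 rising by 2.08 ± 0.17 and Itgam by 2.56 ± 0.23, Cd8a falling by 2.16 ± 0.18 and Ptprc not passing (0.61 ± 0.34, adjusted p 0.203). Leukocyte array means were 7.21 to 7.38 in the treated knockout, 6.78 to 6.98 in the untreated knockout, 7.26 to 7.45 in the untreated and 6.46 to 6.71 in the treated wild type. Of 5 smooth muscle markers 2 rose (18.8% of all genes), Des by 0.89 ± 0.29 and Tagln by 0.68 ± 0.23, Acta2 (0.41 ± 0.17, adjusted p 0.0828) and Myh11 (0.12 ± 0.19, adjusted p 0.686) did not pass, and array means were 9.13 to 10.2 in the other groups and 10.1 to 10.2 in the treated knockout. Cd8a was the only gene of all these lists that changed in the treated wild type, where it fell by 1.30 ± 0.18 (adjusted p 0.0437), and 13 of 22 alternatives, the replicate block among them, ended that call (adjusted p up to 0.242).

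Of 5 stomach genes 3 rose in treated knockout mice (18.8% of all genes), Gkn1 by 2.49 ± 0.19, Gkn2 by 2.83 ± 0.24 and Tff1 by 3.37 ± 0.36, while Muc5ac, which marks stomach surface cells, read 2.83, 2.96 and 2.91 there (0.14 ± 0.13, adjusted p 0.454). The stomach array means were 3.13 to 3.72 in the other groups and 4.79 to 5.16 in the treated knockout. Counts of the lists that follow are to be read beside the 16% of all genes that fell and the 18.8% that rose. Of 4 ileal genes 2 fell, Slc51a by 4.01 ± 0.32 and Slc51b by 4.27 ± 0.45, whereas Slc10a2 (2.87, 3.02 and 2.66) and the ileal bile acid binding protein Fabp6 (2.42, 2.46 and 2.67 in treated knockout mice) stayed at the low end of the scale in every group. Of 3 colon genes 2 fell, Slc26a3 by 4.98 ± 0.19 and Aqp8 by 3.36 ± 0.64, and Car1 was low throughout (-0.00 ± 0.25, adjusted p 0.992). Of 5 adipocyte genes Cidec fell by 2.02 ± 0.38, Fabp4 rose by 1.83 ± 0.47, and Car3 (-2.10 ± 0.82, adjusted p 0.0687) and Plin1 (-0.29 ± 0.51, adjusted p 0.714) did not pass. None of 10 pancreatic acinar genes passed in the knockout, where Clps (-1.02 ± 1.30), Sycn (-1.05 ± 2.84) and Ctrb1 (-1.03 ± 3.48) had the smallest p and Gp2 (0.03 ± 3.35) the largest.

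**Figure D4:**
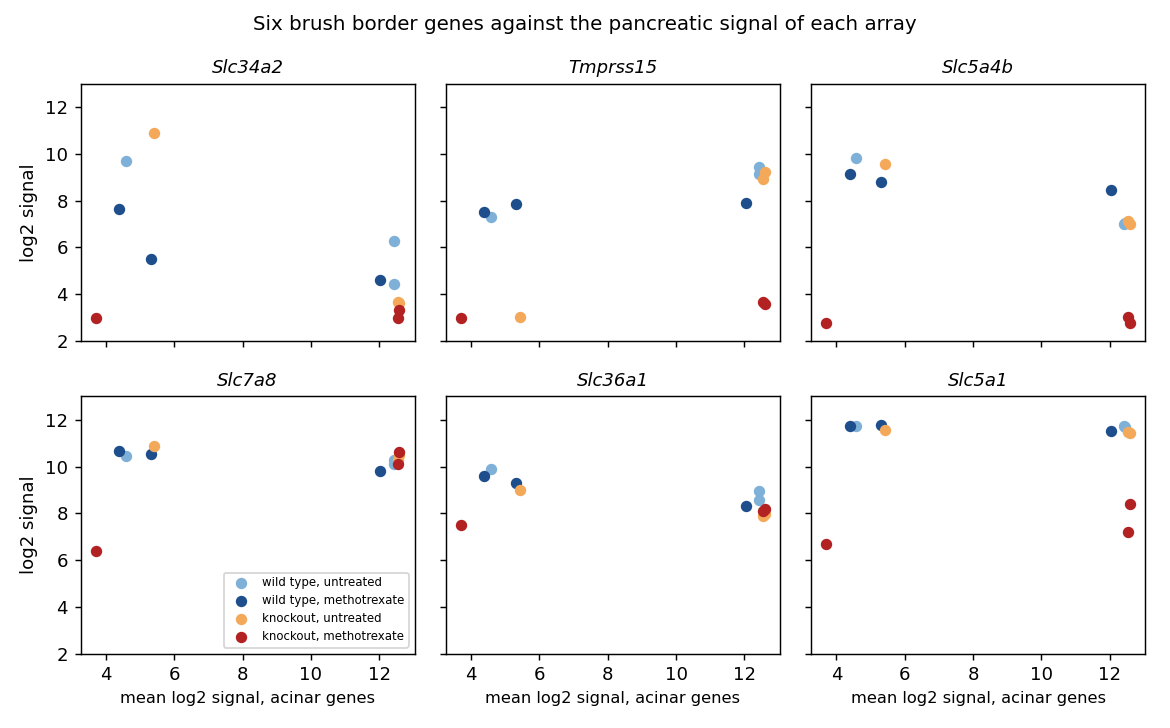
Log2 signal (vertical axis) of Slc34a2, Tmprss15, Slc5a4b, Slc7a8, Slc36a1 and Slc5a1 against the mean log2 signal of 10 pancreatic acinar genes (horizontal axis), 1 point per array, coloured by group. Untreated Slc34a2 and Slc5a4b are higher in arrays with low pancreatic signal, and untreated Tmprss15 is lower there in both genotypes. Slc5a1 is low in all treated knockout arrays at either pancreatic level.

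Changes in the knockout were also taken at each level of pancreatic signal, with no test. Within high-pancreas arrays, 2 treated against 2 untreated knockout mice, the change was below 0 for 32 of the 34 genes with a median of -3.23, the exceptions being Slc36a1 (0.24) and Slc7a8 (0.01). In the low-pancreas pair, 1 mouse against 1, it was below 0 for all 34 genes with a median of -4.94, though Tmprss15 was at -0.04. In the wild type the change was below 0 for 30 of the 34 genes within high-pancreas arrays (1 against 2, median -0.34) and for 21 within low-pancreas arrays (2 against 1, median -0.13). Lct changed by -1.58 in the wild type within high-pancreas arrays and by -0.60 within low-pancreas ones. The single high-pancreas array of the treated wild type was the lowest of its group for 30 of the 34 genes. Among untreated mice the low-pancreas array lay above both high-pancreas arrays for 26 of the 34 genes in the knockout and 19 in the wild type. In a fit on the 7 high-pancreas arrays alone, added after the data were seen, 5 of the 34 genes passed the test in the wild type, with Lct, Naaladl1, Ace and Tmprss15 lower and Slc5a4b higher, against 4.44% of all genes (443 higher, 393 lower). That fit holds 1 treated wild-type mouse, whose spread is assumed to equal that of the other groups.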

How the data were processed

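The deposited values are log2 signals for each probe set, which the authors computed with RMA, per the submitters' processing notes, which name no version. RMA corrects background, normalises arrays to each other and summarises the probes of a set. No genome build for the arrays is given in the sources used here, and gene symbols were taken from the platform annotation. Total RNA was DNase-treated and copied into cDNA, per the labels' protocols. The table held 35556 probe sets, of which 21218 had 1 gene symbol, 1881 several and 12457 none here; 1386 of the 18820 genes had more than 1 probe set. Values were used as deposited.

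One limma 3.58.1 fit (lmFit, eBayes, R 4.3.3) took all 12 arrays with a mean per group and 8 residual degrees of freedom, without a minimum fold. Values after ± are limma standard errors of changes, or SDs where stated. The fit was tested on simulated data. Arrays give no read depth, and 3 per group limit the precision. The genes followed and all lists were chosen with earlier results of these data known, so counts over them are descriptions. Every array value is given for a listed set of members and for those with the 3 smallest and 3 largest p of each contrast; of each other list the 3 smallest p and the largest p in the knockout contrast are named.

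Replicate numbers were checked for pairing. Deviations from group means of same-numbered arrays correlated at 0.29 to 0.50 between treated and untreated knockout mice and at 0.50 to 0.67 between untreated genotypes, but at -0.49 to 0.53 in the wild type and at -0.15 to 0.25 between treated genotypes. The mice differ, and the numbers go along with the pancreatic signal. Alternatives were averaging the probe sets of a gene, a filter at the 25th percentile, quantile normalisation, median centring, only the groups compared, a replicate block, pancreatic signal (threshold 8) as a block, array weights, each array left out, and 2 added after the data were seen: only high-pancreas arrays, and centring on general epithelial genes. No genome or protein sequences were used.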

Additional observations from a re-analysis of the deposited data

Results flagged for a closer look

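The methotrexate change differed between knockout and wild-type mice, by limma's interaction test with p-values adjusted over 18820 genes, for 29 of the 34 brush border genes. The values are the log2 change in the knockout minus that in the wild type, 3 mice per group, and all are below 0. Among the disaccharidases they were Lct (-7.05), Sis (-5.67), Mgam (-1.87) and Treh (-5.78). Among the peptidases they were Anpep (-2.76), Dpp4 (-3.52), Enpep (-3.97), Naaladl1 (-5.12), Ace (-2.04), Xpnpep2 (-4.27), Mep1a (-4.18) and Mep1b (-4.04). The sugar carriers had Slc5a1 (-4.03), Slc5a4b (-5.90), Slc5a11 (-4.58), Slc2a2 (-6.38) and Slc2a5 (-3.70), and the metabolic enzymes Khk (-4.07) and Fbp1 (-5.16). The peptide and amino acid carriers had Slc15a1 (-5.19), Slc6a19 (-5.02), Slc6a20a (-6.19) and Slc7a9 (-3.47). The microvillus genes had Vil1 (-2.19), Cdhr2 (-2.27), Cdhr5 (-2.01), Ush1c (-2.02), Myo1a (-3.09) and Myo7b (-1.80). The 5 genes that did not pass were Slc1a1, Slc36a1, Slc7a8, Slc34a2 and Tmprss15. No array was removed from this fit as outlying, and leaving out arrays or weighting them was tried only as an alternative.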

How the results depend on the processing

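Of the 30 genes that fell in the knockout, 29 kept the call in each alternative run, as did 29 of 30 between treated genotypes and 29 of 29 in the interaction. The exception was Tmprss15, which in the knockout was also lost with only the groups compared (adjusted p 0.143), and between treated genotypes without replicate 1 or 2 of the treated wild type (adjusted p 0.0540 and 0.0521). Calls gained between treated genotypes were Slc36a1 in 7 alternatives, Slc1a1 in 3 and Slc34a2 in 1, and Tmprss15 gained the interaction in 3. In the wild type the count of called genes was 0, but 1 with array weights (Slc5a4b, higher, where 9.67% of all genes were called) and 5 with only high-pancreas arrays (4.44% of all genes). Ace in the wild type was 0.0402 with array weights and, leaving out 1 array at a time, between -0.48 and 0.0464, never called there. With only high-pancreas arrays the median was -3.23 in the knockout, -3.61 between treated genotypes and -3.26 in the interaction. With the replicate block the counts were 30 in the knockout, 0 in the wild type, 0 untreated, 31 between treated genotypes and 29 in the interaction, so the paired fit changed no other call than Slc36a1's. No gene that was called changed sign. In the main fit the median change of all genes lay between -0.02 and 0.02 in each contrast. Centring on general epithelial genes took the median of all genes to -0.16 in the wild type and -0.11 untreated. It took the median to 0.17 in the knockout, 0.22 between treated genotypes and 0.35 in the interaction. It turned the split of all calls from 3537 higher and 3012 lower to 4571 and 1894 in the knockout, from 3793 and 3155 to 4861 and 2072 between treated genotypes, and from 2220 and 2259 to 3301 and 1188 in the interaction. Of 80 genes of the other lists called in the knockout, 66 kept the call in each alternative, and Cdh1 (14), Tagln (11), Apoa4 (7), Des (6), Elf3 (6), Lgr5 (5) and Cldn7 (4) lost it in the most, of 22. Falls to low signals may be understated, and 3 mice per group limit what the wild-type contrast can show.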
